A study of Sus scrofa with 4 samples.

Results

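The genes described here encode 33 enzymes that break down amino acids or make creatine, in kidneys of genetically modified pigs that were either transplanted into non-human primates or left untransplanted. They were taken from a list of 34 gene symbols, by matching the symbol and keeping those with 10 or more counts in at least 1 library. All but PRODH, which is not analysed here, met this rule, out of 26466 gene symbols in all, of which 18168 were tested. RNA was sequenced in 4 libraries, 1 for each of 4 groups. The first genotype, GalT-/-;hCD39;hCD46;hCD55;TBM, lacked the alpha-Gal-making galactosyltransferase and carried human CD39, CD46, CD55 and thrombomodulin, and is called TBM below. The second, GalT-/-;hCD39;hCD55, lacked the same enzyme and carried only the human CD39 and CD55 transgenes, and is called CD39/CD55. Transplanted kidneys are called grafts: the TBM graft was taken 6 weeks after transplantation and the CD39/CD55 graft 4 weeks after. Both genotypes carry the GalT deletion and both transgenes of CD39/CD55, so no unmodified kidney serves as a control. Genotype, weeks after transplantation and recipient cannot be told apart between the 2 grafts. The sources used here do not give the ages of the pigs, the promoters of the transgenes or the number of animals per library.

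The kidney is a main site of amino acid handling, and most of these enzymes are made in the cells of the proximal tubule, which take up filtered amino acids. Breakdown removes the amino group and passes the carbon skeleton to energy metabolism or to glucose synthesis. The kidney also makes guanidinoacetate, the precursor from which the liver makes creatine, and turns citrulline from the gut into arginine for the rest of the body. Kynurenine, a product of tryptophan, is broken down here along a path that can lead to quinolinate and NAD.

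Total counts were between 10346863 and 14092905 per library, and at least 1 count was found for 21104 to 21392 genes. Ribosomal RNA loci took 18.9% of counts in the TBM graft and 22.4% in the CD39/CD55 graft, against 12.6% and 10.8% in the untransplanted kidneys of those genotypes. Mitochondrially encoded genes took 12.6% in the TBM graft and 4.23% in the CD39/CD55 graft, against 15.0% and 10.6%. All 25 proximal tubule markers examined were measured in the untransplanted kidneys, among them the megalin gene LRP2 with 20999 counts in TBM and 23515 in CD39/CD55. Of the hepatocyte list, albumin had at most 5 counts in any library, while 8 genes passed the count filter. With 1 library per group, a comparison of 2 libraries has no replicate check and is given with a 95% counting interval (exact Clopper-Pearson) and no p-value. The comparison of both grafts with both untransplanted kidneys used the quasi-likelihood test of edgeR, its p-value adjusted over all 18168 genes by the Benjamini-Hochberg method.

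The enzyme genes were low in both grafts. Together the 33 genes took 0.129% of all counts in the TBM graft (95% interval 0.127% to 0.132%) and 0.368% in the CD39/CD55 graft (0.365% to 0.372%). In the untransplanted kidneys they took 0.736% in TBM (0.732% to 0.741%) and 0.877% in CD39/CD55 (0.873% to 0.882%). These intervals cover counting error only. In edgeR's quasi-likelihood test 10 of the 33 fell, which is 30.3% of them, while 2.71% of all genes tested fell. That fit leaves genotype out. With genotype as a block, which pairs each graft with the untransplanted kidney of its genotype, 23 of the 33 fell, as did 1681 of all genes instead of 493. The 10 were GATM, AGMAT, HGD, DDO, DDC, BHMT, AMT, AGXT2, DAO and PRODH2. None rose in that test, where 1.24% of all genes rose, although HPD and GLDC had higher levels at an unadjusted p under 0.05. DESeq2's Wald test and limma voom also found none that rose, whereas HPD rose without the count filter and with genotype as a block. Over the alternatives the HPD log2 fold change ran from 0.12 to 4.51. The median log2 fold change of the 33 was -1.26, against 0.03 over all genes tested. In CPM scaled by the TMM factor of each library, 24 of the 33 had both grafts below both untransplanted kidneys, a pattern seen in 25.5% of all genes tested. GLDC alone had both grafts above, a pattern seen in 26.3% of all genes. Without the CD39/CD55 graft 24 of the 33 fell instead of 10, in a fit that takes the lone graft to vary like the untransplanted pair, and all genes that fell then numbered 1349. In bulk RNA, fewer cells of a type and less RNA per cell cannot be told apart.

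**Figure D1:**
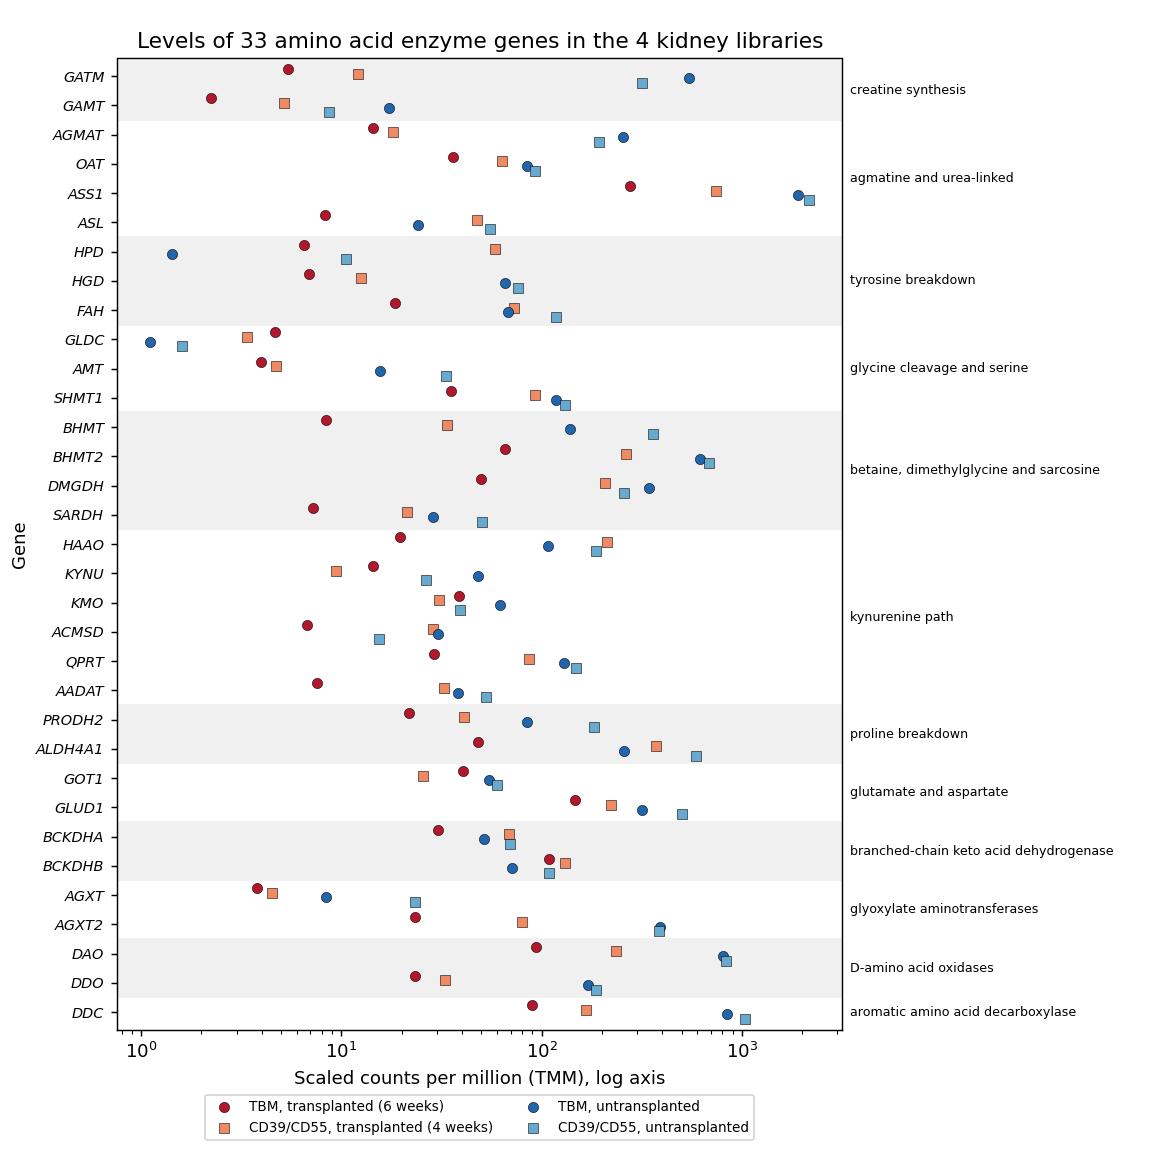
TMM-scaled CPM (log axis) of each of the 33 genes in the 4 libraries, 1 point per library, with genes grouped by role on the right. In 24 genes both red and orange graft points lie left of both blue untransplanted points. HPD, GLDC and BCKDHB have their graft points on the right within each genotype.

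Compared within each genotype, a gene was called lower or higher when the ratio of scaled counts was at least 2-fold and its interval excluded 1. In TBM, 27 of the 33 were called lower and 2 higher in the graft, against 16.3% and 15.9% of all genes tested. In CD39/CD55, 17 were called lower and 2 higher, against 13.7% and 13.2% of all genes. The median log2 ratio of the 33 was -2.14 in TBM and -1.17 in CD39/CD55. The 2 genotypes shared 16 of the genes called lower, and both had HPD and GLDC as the genes called higher. Another 11 were called lower in TBM but not in CD39/CD55, and GOT1 was called lower in CD39/CD55 but not in TBM. KMO, BCKDHA and BCKDHB were called in neither. The enzyme genes had a median of 4314 counts summed over the 4 libraries and all genes tested 590, so counting intervals were narrower for the enzymes than for a typical gene.

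**Figure D2:**
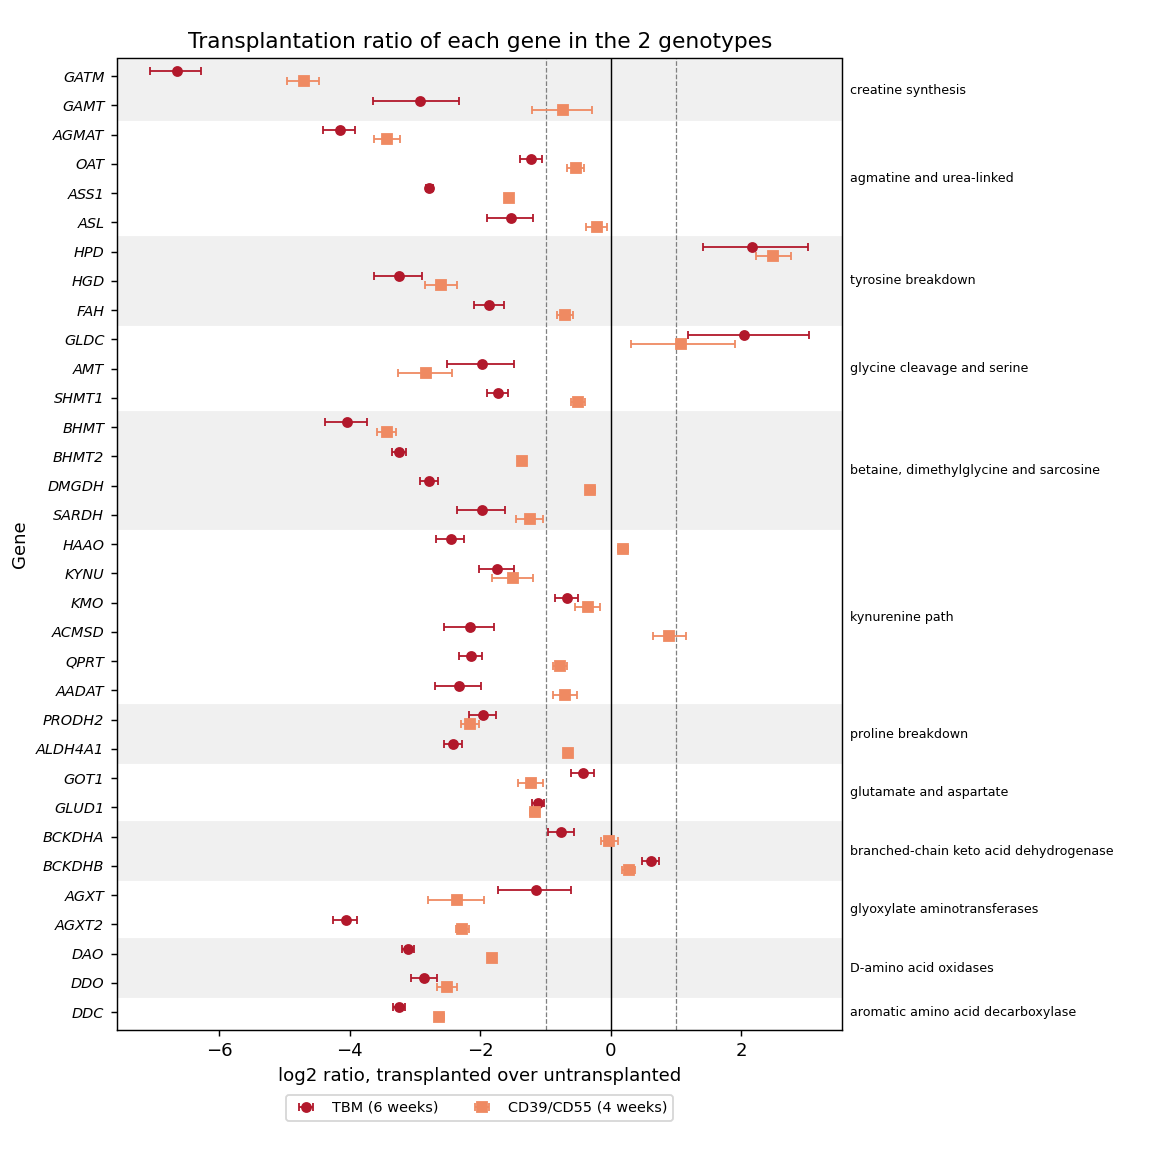
Log2 ratio of the graft over the untransplanted kidney for each gene, in TBM (circles) and in CD39/CD55 (squares), with 95% counting intervals as bars and dashed lines at 2-fold. GATM lies farthest to the left in both genotypes, and HPD, GLDC and BCKDHB lie to the right of 0 in both. ACMSD and HAAO lie on opposite sides of 0 in the 2 genotypes.

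Creatine synthesis had the member with the largest log2 fold change of the 33. GATM (chromosome 1, 126361968 to 126378705, Sscrofa11.1) encodes glycine amidinotransferase, which makes guanidinoacetate from arginine and glycine. It had 56 counts in the TBM graft and 150 in the CD39/CD55 graft, against 6889 in the untransplanted TBM kidney and 4355 in the untransplanted CD39/CD55 kidney. Both grafts were far below both untransplanted kidneys, by 99.7-fold in TBM and 26.1-fold in CD39/CD55, and GATM fell by 5.61 in log2 units (SE 0.62; adjusted p = 0.00098). GAMT, the methyltransferase that turns guanidinoacetate into creatine, had 23 counts in the TBM graft and 64 in the CD39/CD55 graft, against 218 and 119 in the untransplanted TBM and CD39/CD55 kidneys. Its groups did not overlap, but it did not pass the test (log2 fold change -1.80, SE 0.56, adjusted p = 0.0974). The GAMT ratio was 7.60-fold lower in TBM and 1.67-fold lower in CD39/CD55. With all 4 libraries GAMT passed edgeR's test without the count filter (adjusted p = 0.024) and with genotype as a block (0.0135). Over the 10 alternatives its log2 fold change ran from -2.53 to -1.22.

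Among the genes of agmatine, citrulline and ornithine, AGMAT fell and the other 3 did not pass. AGMAT (chromosome 6, 74773359 to 74784486), annotated as agmatinase, had 148 counts in the TBM graft and 223 in the CD39/CD55 graft, against 3227 in untransplanted TBM and 2658 in untransplanted CD39/CD55. It fell by 3.79 in log2 units (SE 0.47; adjusted p = 0.00175). ASS1, which joins citrulline and aspartate in arginine synthesis, held more counts than any other of the 33 in every library. It had 2870 counts in the TBM graft and 9172 in the CD39/CD55 graft, against 24103 in untransplanted TBM and 29871 in untransplanted CD39/CD55. Both grafts were lower, but the test gave an adjusted p of 0.077 (log2 fold change -2.0, SE 0.58). With all 4 libraries ASS1 passed in DESeq2's Wald test (adjusted p = 0.00273) and limma voom (0.0457). It also passed edgeR's test without the count filter (0.0145) and with genotype as a block (0.00166). Over the alternatives its log2 fold change ran from -2.87 to -1.46. ASL, which splits argininosuccinate to release arginine, had 86 counts in the TBM graft and 589 in the CD39/CD55 graft, against 305 and 761 in untransplanted TBM and CD39/CD55. Only the TBM ratio was called lower, at 2.89-fold, while the CD39/CD55 ratio was 1.16-fold lower. ASL passed without the CD39/CD55 graft (adjusted p = 0.00463; up to 0.961 over the alternatives). OAT, ornithine aminotransferase, had log2 ratios of -1.22 in TBM and -0.54 in CD39/CD55. ASL overlaps another gene in the RefSeq annotation, and reads of the pair cannot be separated in these counts.

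The tyrosine enzymes, which act one after another, had fold changes on both sides of 0. HPD, the hydroxyphenylpyruvate dioxygenase of the first of these steps (chromosome 14, 30845608 to 30857658), had 67 counts in the TBM graft and 728 in the CD39/CD55 graft, against 18 in untransplanted TBM and 144 in untransplanted CD39/CD55. Each graft was above the untransplanted kidney of its own genotype, by 4.46-fold in TBM and 5.59-fold in CD39/CD55, while the TBM graft stayed below the untransplanted CD39/CD55 kidney. HPD did not pass the test (log2 fold change 2.45, SE 0.91, adjusted p = 0.159). With genotype as a block HPD passed edgeR's test (adjusted p = 7.82e-05), as it did without the count filter (0.00599). Its log2 fold change was 4.51 without the untransplanted CD39/CD55 kidney and 3.30 without the TBM graft. It was 1.64 without the untransplanted TBM kidney and 0.12 without the CD39/CD55 graft. Each of these last fits leaves 1 library on a side and unequal numbers of the genotypes, whose HPD levels differed in both states. HGD, the homogentisate dioxygenase of the next step (chromosome 13, 139660315 to 139710402), had 71 counts in the TBM graft and 155 in the CD39/CD55 graft, against 826 and 1041 in untransplanted TBM and CD39/CD55. HGD fell by 2.86 in log2 units (SE 0.46; adjusted p = 0.00568). FAH, fumarylacetoacetase, ends the path and had 192 counts in the TBM graft and 898 in the CD39/CD55 graft, against 856 and 1622 in untransplanted TBM and CD39/CD55. It was 3.64-fold lower in the TBM pair and 1.63-fold lower in the CD39/CD55 pair. FAH did not pass edgeR's test with state alone (log2 fold change -1.03, adjusted p = 0.342). With genotype as a block it passed that test (log2 fold change -1.27, adjusted p = 0.0126). Over the alternatives its log2 fold change ran from -2.32 to -0.35.

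Of the glycine cleavage system, AMT fell, while GLDC had higher counts in the grafts and did not pass the test. The other subunit genes, GCSH and DLD, had log2 fold changes of -1.27 and -0.83 and did not pass (adjusted p = 0.123 and 0.272). AMT, the aminomethyltransferase (chromosome 13, 31995600 to 32002514), had 41 counts in the TBM graft and 58 in the CD39/CD55 graft, against 198 in untransplanted TBM and 459 in untransplanted CD39/CD55. It fell by 2.50 in log2 units (SE 0.50; adjusted p = 0.0171) and did not pass without the untransplanted CD39/CD55 kidney (0.0949; 9.45e-05 to 0.0949 over the alternatives). GLDC, the glycine decarboxylase subunit, had 48 counts in the TBM graft and 42 in the CD39/CD55 graft, against 14 and 22 in untransplanted TBM and CD39/CD55. These low counts were called higher in both genotypes, by 4.09-fold in TBM (log2 ratio 2.03, interval 1.18 to 3.04) and 2.10-fold in CD39/CD55 (1.07, 0.31 to 1.90), and did not pass the test (adjusted p = 0.185). SHMT1, the cytosolic serine hydroxymethyltransferase, had 367 counts in the TBM graft and 1146 in the CD39/CD55 graft, against 1492 and 1802 in untransplanted TBM and CD39/CD55. It had log2 ratios of -1.73 in TBM and -0.50 in CD39/CD55. SHMT1 did not pass the test (adjusted p = 0.298) but passed it with genotype as a block (0.0348). Over the alternatives its log2 fold change ran from -1.80 to -0.42. GLDC and SHMT1 each overlap another annotated gene.

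Betaine and its products are demethylated step by step to glycine, and of the 4 genes grouped here 3 are neighbours on chromosome 2. DMGDH, BHMT2 and BHMT lie between 87791827 and 87935252, a span of 143 kb, and the annotated ends of DMGDH and BHMT2 overlap by 559 bases. BHMT, which moves a methyl group from betaine to homocysteine, had 87 counts in the TBM graft and 415 in the CD39/CD55 graft, against 1761 in untransplanted TBM and 4961 in untransplanted CD39/CD55. BHMT fell by 3.57 in log2 units (SE 0.68; adjusted p = 0.0139). BHMT2, its paralogue that uses S-methylmethionine, had 676 counts in the TBM graft and 3274 in the CD39/CD55 graft, against 7828 and 9377 in untransplanted TBM and CD39/CD55, with an adjusted p of 0.0948. DMGDH, dimethylglycine dehydrogenase, had 513 counts in the TBM graft and 2575 in the CD39/CD55 graft, against 4326 and 3548 in untransplanted TBM and CD39/CD55. Within CD39/CD55 these neighbours had log2 ratios of -3.43 for BHMT, -1.37 for BHMT2 and -0.31 for DMGDH, and in TBM they were -4.04, -3.24 and -2.78, with intervals that do not overlap in either genotype. BHMT and BHMT2 are related in sequence, and the sources used here do not say how reads that match several genes were counted. SARDH, sarcosine dehydrogenase, had log2 ratios of -1.97 in TBM and -1.25 in CD39/CD55 (adjusted p = 0.145). With all 4 libraries BHMT2 passed in DESeq2's Wald test (adjusted p = 0.0125). In edgeR's test without the count filter BHMT2 (0.0119) and SARDH (0.0441) passed. With genotype as a block BHMT2 (0.000686), DMGDH (0.0238) and SARDH (0.00182) each passed that test. Over the alternatives the log2 fold change ran from -3.31 to -1.30 for BHMT2, -2.59 to -0.53 for DMGDH and -2.43 to -0.89 for SARDH.

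No gene of the kynurenine path passed the test, and the path held the members whose ratios differed most between the genotypes. ACMSD (chromosome 15, 17121950 to 17164005) encodes the decarboxylase that draws intermediates away from quinolinate. It had 70 counts in the TBM graft and 356 in the CD39/CD55 graft, against 384 in untransplanted TBM and 212 in untransplanted CD39/CD55. The TBM graft was lowest and the CD39/CD55 graft lay above its own untransplanted kidney, with log2 ratios of -2.16 in TBM (interval -2.55 to -1.79) and 0.90 in CD39/CD55 (0.65 to 1.15). HAAO, the hydroxyanthranilate dioxygenase that makes that intermediate (chromosome 3, 97580756 to 97595033), had 204 counts in the TBM graft and 2627 in the CD39/CD55 graft, against 1368 in untransplanted TBM and 2553 in untransplanted CD39/CD55. Its log2 ratios were -2.45 in TBM (interval -2.67 to -2.24) and 0.19 in CD39/CD55 (0.11 to 0.27). QPRT, which turns quinolinate into an NAD precursor, had 301 counts in the TBM graft and 1075 in the CD39/CD55 graft, against 1628 and 2048 in untransplanted TBM and CD39/CD55.

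KYNU, KMO and AADAT act on kynurenine or its hydroxylated product. KYNU, kynureninase, had 148 counts in the TBM graft and 116 in the CD39/CD55 graft, against 609 and 364 in untransplanted TBM and CD39/CD55. It was called lower in both genotypes, with log2 ratios of -1.75 in TBM and -1.5 in CD39/CD55, and had an adjusted p of 0.0658. KMO, the kynurenine monooxygenase, was called in neither, with 401 counts in the TBM graft and 380 in the CD39/CD55 graft, against 782 and 539 in untransplanted TBM and CD39/CD55. AADAT, an aminotransferase of kynurenine and aminoadipate, had 78 counts in the TBM graft and 402 in the CD39/CD55 graft, against 481 and 724 in untransplanted TBM and CD39/CD55, with log2 ratios of -2.33 in TBM and -0.70 in CD39/CD55. With all 4 libraries KYNU passed in DESeq2's Wald test (adjusted p = 0.0204) and in edgeR's test without the count filter (0.0142). With genotype as a block KYNU (0.00142), QPRT (0.00718) and AADAT (0.00656) passed edgeR's test. HAAO and ACMSD passed under no alternative that kept all 4 libraries. Over the alternatives the log2 fold change ran from -2.02 to -1.17 for KYNU, -2.25 to -0.67 for QPRT and -2.58 to -0.48 for AADAT. It ran from -2.89 to 0.53 for HAAO and -1.75 to 0.33 for ACMSD. KMO overlaps another annotated gene.

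Of the proline and hydroxyproline enzymes, PRODH2 fell. PRODH2, hydroxyproline dehydrogenase (chromosome 6, 45213712 to 45240437), had 226 counts in the TBM graft and 506 in the CD39/CD55 graft, against 1075 in untransplanted TBM and 2507 in untransplanted CD39/CD55. It fell by 2.09 in log2 units (SE 0.51; adjusted p = 0.0377), but did not pass without the untransplanted CD39/CD55 kidney (0.23) or without the TBM graft (0.0995; 8.15e-05 to 0.23 over the alternatives). ALDH4A1, the pyrroline-carboxylate dehydrogenase that serves both amino acids, had 497 counts in the TBM graft and 4610 in the CD39/CD55 graft, against 3250 in untransplanted TBM and 8070 in untransplanted CD39/CD55. The TBM ratio was 5.34-fold lower and the CD39/CD55 ratio 1.58-fold lower, and the CD39/CD55 graft lay above the untransplanted TBM kidney in scaled CPM (373 against 257). ALDH4A1 did not pass edgeR's test with state alone (log2 fold change -1.01, adjusted p = 0.481). With genotype as a block it passed that test (log2 fold change -1.53, adjusted p = 0.0153). Over the alternatives its log2 fold change ran from -3.13 to -0.18.

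None of the 4 genes for glutamate, aspartate and branched-chain keto acids passed the test. GLUD1, glutamate dehydrogenase, was called lower in both genotypes with near-equal log2 ratios of -1.12 in TBM and -1.17 in CD39/CD55. It did not pass the test (adjusted p = 0.205) but passed it with genotype as a block (0.0387). GOT1, cytosolic aspartate aminotransferase, had 417 counts in the TBM graft and 316 in the CD39/CD55 graft, against 689 and 821 in untransplanted TBM and CD39/CD55. BCKDHA and BCKDHB, the subunits of the enzyme that commits branched-chain amino acids to breakdown, were called in neither genotype. BCKDHB had 1121 counts in the TBM graft and 1625 in the CD39/CD55 graft, against 898 and 1494 in untransplanted TBM and CD39/CD55, with log2 ratios of 0.61 and 0.27. BCKDHA had log2 ratios of -0.76 in TBM and -0.02 in CD39/CD55.

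Among the aminotransferases of glyoxylate, AGXT2 fell. AGXT2, a mitochondrial enzyme that also handles methylated arginines (chromosome 16, 20576661 to 20617008), had 242 counts in the TBM graft and 989 in the CD39/CD55 graft, against 4959 in untransplanted TBM and 5322 in untransplanted CD39/CD55. AGXT2 fell by 2.91 in log2 units (SE 0.59; adjusted p = 0.0171). AGXT, known as the liver enzyme whose loss causes oxalate overload in humans, had 39 counts in the TBM graft and 56 in the CD39/CD55 graft, against 106 and 319 in untransplanted TBM and CD39/CD55. It was called lower in both genotypes and did not pass the test (adjusted p = 0.0717). With all 4 libraries AGXT passed in DESeq2's Wald test (adjusted p = 0.026). It also passed edgeR's test without the count filter (0.0115) and with genotype as a block (0.00575). Over the alternatives its log2 fold change ran from -2.48 to -1.01.

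The oxidases of D-amino acids and the decarboxylase DDC all fell. DAO, the oxidase of neutral D-amino acids (chromosome 14, 41931549 to 41950628), had 965 counts in the TBM graft and 2912 in the CD39/CD55 graft, against 10167 in untransplanted TBM and 11379 in untransplanted CD39/CD55. It fell by 2.31 in log2 units (SE 0.55; adjusted p = 0.034) and did not pass without the TBM graft (0.1; 0.000195 to 0.1 over the alternatives). DDO, which oxidises D-aspartate (chromosome 1, 76391112 to 76417147), had 242 counts in the TBM graft and 407 in the CD39/CD55 graft, against 2146 and 2574 in untransplanted TBM and CD39/CD55. DDO fell by 2.66 in log2 units (SE 0.44; adjusted p = 0.00695), with similar ratios of 7.24-fold lower in TBM and 5.69-fold lower in CD39/CD55. DDC, which makes dopamine in the proximal tubule (chromosome 9, 136496364 to 136571220), had 923 counts in the TBM graft and 2073 in the CD39/CD55 graft, against 10690 in untransplanted TBM and 14193 in untransplanted CD39/CD55. DDC fell by 2.87 in log2 units (SE 0.53; adjusted p = 0.0119).

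The TBM graft had lower levels of these enzymes than the CD39/CD55 graft. Between the 2 grafts 19 of the 33 were called lower in TBM and none higher, against 11.0% lower and 11.0% higher among all genes tested. The median log2 ratio of TBM over CD39/CD55 in the grafts was -1.20, and 29 of the 33 ratios were below 0. KYNU, KMO, GOT1 and GLDC had ratios above 0, of 0.61, 0.34, 0.66 and 0.45. The largest ratios in the grafts were those of HAAO (10.7-fold lower in TBM), HPD (9.02-fold), ALDH4A1 (7.75-fold) and ASL (5.70-fold). Between the untransplanted kidneys 7 of the 33 were called lower in TBM and none higher, against 7.88% and 8.17% of all genes. These were HPD, AMT, BHMT, PRODH2, ALDH4A1, ASL and AGXT, and the median log2 ratio of the 33 was -0.22. HPD was 7.20-fold lower in TBM in the untransplanted kidneys, and the difference between its transplantation ratios was -0.33 (interval -1.11 to 0.46) and not called.

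The difference between the transplantation ratios of the 2 genotypes was then taken from all 4 libraries, as TBM minus CD39/CD55 on the log2 scale, with a 95% Wald counting interval. By the same rule of 2-fold and an interval that excludes 0, the ratio was lower in TBM for 15 of the 33 and higher for AGXT, against 11.5% and 10.4% of all genes tested. The largest differences were those of ACMSD at -3.05 (interval -3.49 to -2.61), HAAO at -2.64 (-2.87 to -2.42), DMGDH at -2.47 (-2.62 to -2.32) and GAMT at -2.19 (-2.94 to -1.43). Of the 10 genes that fell, GATM, AGXT2 and DAO were among the 15, while AGMAT, HGD, DDO, DDC, BHMT, AMT and PRODH2 were not called different. Counting error is the only error in these intervals, so they compare 4 libraries and not 2 genotypes. With genotype as the tested factor and 2 libraries a side, edgeR's quasi-likelihood test passed none of the 33 and 0.0% of all genes. At an unadjusted p under 0.05, HPD and ASL were lower in TBM, beside 259 of all genes lower and 190 higher. DESeq2's Wald test and limma voom also passed none of the 33, and over all genes the first passed 5 lower and 12 higher and the second none. With state as a block 6 of the 33 were lower in TBM (HPD, FAH, BHMT, HAAO, ALDH4A1 and ASL). Of all genes 171 were lower and 133 higher in that fit. Without the untransplanted CD39/CD55 kidney the log2 fold change of HPD was -3.90.

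**Figure D3:**
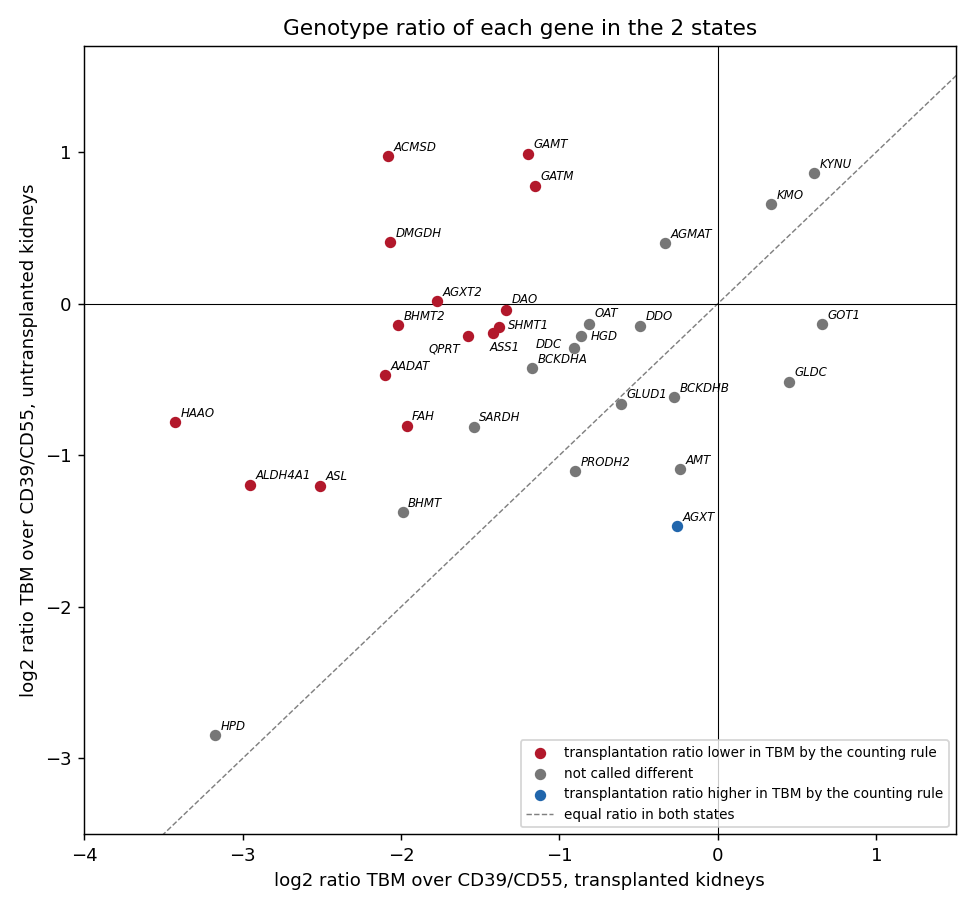
Log2 ratio of TBM over CD39/CD55 for each of the 33 genes in the transplanted kidneys (horizontal) and in the untransplanted kidneys (vertical), with the dashed line where both ratios are equal. The 15 red genes lie well to the left of the line, AGXT lies to the right, and HPD lies near the line at the lower left.

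Other genes of the same pathways were also low in the grafts in part. Of 79 measured, 9 fell (11.4%) and none rose in edgeR's quasi-likelihood test, where 2.71% of all genes fell and 1.24% rose. At an unadjusted p under 0.05, 25 were lower and 1 higher, beside 1946 and 1633 of all 18168 genes. The median log2 fold change was -0.75. PCCB, a subunit of propionyl-CoA carboxylase, fell by 2.05 in log2 units (SE 0.43; adjusted p = 0.0204). SHMT2, the mitochondrial partner of SHMT1, fell by 2.07 (SE 0.44, 0.0221), and the monoamine oxidase gene MAOB by 2.11 (SE 0.50, 0.0356). HOGA1, the aldolase that ends hydroxyproline breakdown, fell by 2.63 (SE 0.63, 0.0367), and SDSL, a serine dehydratase relative, by 1.7 (SE 0.41, 0.0377). ACAD8, MTR and GRHPR were also among the 9. The count was 30 without the CD39/CD55 graft and 1 without the TBM graft, where IDO2 alone fell. CKMT1A, singled out after its values were seen, had 23 counts in the TBM graft and 21 in the CD39/CD55 graft, against 2 in each untransplanted kidney, and rose in DESeq2's Wald test but not in edgeR's (adjusted p = 0.0544).

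Several pathway genes were examined whatever their values. SLC6A8, the creatine transporter, had 67 counts in the TBM graft and 117 in the CD39/CD55 graft, against 162 and 256 in untransplanted TBM and CD39/CD55 (adjusted p = 0.259). CKB, brain-type creatine kinase, had 1854 counts in the TBM graft and 1251 in the CD39/CD55 graft, against 943 and 3332 in untransplanted TBM and CD39/CD55, with groups that overlap. TDO2 and IDO1, which can start the kynurenine path, had 0 and at most 1 counts in every library, which leaves no detectable difference. A count of 0 allows up to 0.290 scaled CPM in the TBM graft and 0.242 in the CD39/CD55 graft, against 0.237 and 0.219 in untransplanted TBM and CD39/CD55. IDO2, an IDO1 relative added after its values were seen, had 325 counts in the TBM graft and 187 in the CD39/CD55 graft. The untransplanted TBM and CD39/CD55 kidneys had 800 and 817. IDO2 was called lower in both genotypes, with log2 ratios of -1.01 in TBM and -1.97 in CD39/CD55. It did not pass edgeR's quasi-likelihood test (adjusted p = 0.105). CPS1 and OTC, the mitochondrial urea cycle enzymes of liver, had at most 13 counts, and TAT, the first enzyme of tyrosine breakdown, at most 46. ARG2, the kidney arginase, had 824 counts in the TBM graft and 2825 in the CD39/CD55 graft, against 1210 and 3978 in untransplanted TBM and CD39/CD55 (adjusted p = 0.803).

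Proximal tubule markers, a list that shares no gene with the 33, were low in the same libraries. Of 25 markers 11 fell and none rose, where 2.71% of all genes tested fell and 1.24% rose. These shares of all genes also apply to the marker lists below. SLC2A2 alone was higher at an unadjusted p under 0.05, and the median log2 fold change of the 25 was -1.88. Their summed level was 4881 scaled CPM in the TBM graft and 12382 in the CD39/CD55 graft, against 19425 in untransplanted TBM and 23239 in untransplanted CD39/CD55. This is a ratio of 3.98-fold lower in TBM and 1.88-fold lower in CD39/CD55, beside 5.94-fold and 2.62-fold for the summed level of the 33 enzymes. LRP2 had 831 counts in the TBM graft and 2622 in the CD39/CD55 graft. SLC22A6 was the 1 marker with no count in a library, the TBM graft, and was named, like SLC2A2, after its values were seen. The part that these markers have in the result was not tested. Of 12 leukocyte markers 5 fell and none rose, with CD14 alone higher at an unadjusted p under 0.05. Their summed counts were low, at 135 in the TBM graft and 108 in the CD39/CD55 graft. The untransplanted TBM and CD39/CD55 kidneys had 817 and 1045. These are counts of pig genes, and how recipient reads were handled is not stated, so they do not measure recipient leukocytes. PTPRC, which defines leukocytes, did not pass (adjusted p = 0.0522), with 31 counts in the TBM graft and 27 in the CD39/CD55 graft, against 120 and 141 in untransplanted TBM and CD39/CD55. Of markers of other kidney cells, 4 of 11 for the thick ascending limb and distal convoluted tubule fell, 2 of 8 for podocytes, 1 of 10 for endothelium and 1 of 9 for fibroblasts and pericytes. Of 12 collecting duct markers 0 fell and 0 rose, with a median log2 fold change of -0.33. At an unadjusted p under 0.05, 0 of them were lower and 2 higher. Of 8 genes listed as hepatocyte markers 4 fell, with a median of -1.80. These lists were likewise not tested against the enzymes.

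**Figure D4:**
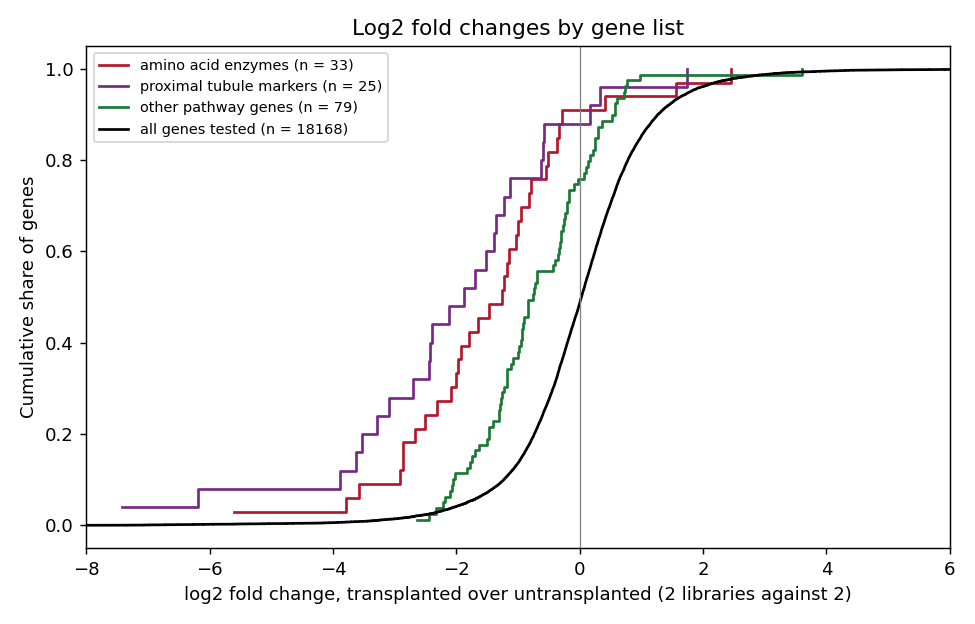
Cumulative share of genes against the log2 fold change of both grafts over both untransplanted kidneys, for the 33 enzymes, 25 proximal tubule markers, 79 other pathway genes and all 18168 genes tested. The medians lie at -1.26, -1.88, -0.75 and 0.03 in that order, and the horizontal axis runs from -8 to 6, which leaves out a few genes of the last group.

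A transcription factor known from mouse and human to maintain proximal tubule genes was set beside these values. HNF4A had 819 counts in the TBM graft and 3407 in the CD39/CD55 graft, against 3303 in untransplanted TBM and 2860 in untransplanted CD39/CD55. Its log2 ratios were -1.72 in TBM and 0.40 in CD39/CD55. PPARGC1A, a coactivator of mitochondrial genes, had log2 ratios of 0.70 in TBM and 0.08 in CD39/CD55. HNF4A and PPARGC1A did not pass the test, with adjusted p values of 0.725 and 0.636, and their part in the result was not tested.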

How the data were processed

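Kidney RNA was measured in 4 libraries, 1 per genotype and state. Each deposited file gives whole-number counts by gene symbol, which the authors left unnormalized. Per the labels' protocols, extraction used phenol and chloroform, and the library kit was Lexogen Quant-Seq. Whether counts are of 3' ends or whole transcripts is not settled here, so levels are not compared between genes. Per the submitters' processing notes, the tools were Bowtie2 and bedtools and the build Sscrofa11.1. The sources used here do not state how strand, reads that match several genes or recipient reads were handled.

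Lines of the 81 repeated symbols were summed. Genes with 10 or more counts in at least 1 library were kept and scaled by TMM (edgeR 4.0.16). Scaled CPM are counts over the TMM-scaled library size. Pair ratios used a prior count of 0.5. The quasi-likelihood fit had state, or genotype, as its only term and 2 residual degrees of freedom, with an adjusted p threshold of 0.05. It was run on simulated counts that held no difference between genotypes, so that run does not check it for this design. The SE of the fit is the absolute log2 fold change over the square root of F. Each side holds both genotypes or both states, so the p-value rests on that spread, and nothing says the libraries are separate animals. Alternatives were DESeq2 1.42.0, limma 3.58.1, other scaling, no filter, the other factor as a block, and each library left out. All 33 members were named. From the other pathway genes, the 6 with the smallest p among those that passed and 8 chosen by name were to be described; some withheld items are not reported here. Coordinates and overlaps are from the RefSeq table of Sscrofa11.1. Sequences were not used here. The members and lists were chosen with earlier results of these data known.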

Additional observations from a re-analysis of the deposited data

Results flagged for a closer look

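In the kynurenine path, 2 genes had transplantation ratios of opposite sign in the 2 genotypes, with each counting interval excluding 0. ACMSD had a log2 ratio of -2.16 in TBM and 0.90 in CD39/CD55. HAAO had a log2 ratio of -2.45 in TBM and 0.19 in CD39/CD55. With 1 library in each group, these differences between the genotypes were not tested against any spread between replicates.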

How the results depend on the processing

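Of the 10 members that fell, GATM, AGMAT, HGD, BHMT, AGXT2, DDO and DDC passed under all 10 alternatives, and AMT, DAO and PRODH2 were each lost when 1 library was left out. The number that fell was 16 without a filter and 23 with genotype as a block, and 9 to 24 with a library left out. For all genes, those that fell numbered 860 and those that rose 413 in DESeq2's Wald test, 1035 and 543 without a filter, 1681 and 1124 with genotype as a block, and 392 to 1349 and 186 to 1051 with a library left out. HPD was the 1 member that rose without a filter and with genotype as a block, and 0 to 1 rose with a library left out. Of the other pathway genes, 15 fell and 1 rose in DESeq2's Wald test and without a filter, 30 fell and 1 rose with genotype as a block, and 1 to 30 fell and 0 to 2 rose with a library left out. Between genotypes 6 members passed with state as a block and 0 to 1 with a library left out.

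Shares of all genes are given here at 2-fold only, so counts at 3-fold cannot be set against a background. At a 3-fold threshold 11 members were called lower and 1 higher in the CD39/CD55 graft, and 1 lower in untransplanted TBM. At that threshold 11 were lower in the TBM graft than in the CD39/CD55 graft, and 9 lower and 0 higher in the difference of ratios. Scaling by DESeq2's size factors, by total count alone or without ribosomal RNA and mitochondrial genes kept each of these counts within 1.5 times. Total count alone moved the median of all genes by 0.14 on the log2 scale in the CD39/CD55 pair. With a library left out, log2 fold changes of members that did not pass changed sign for HAAO (-2.89 to 0.53), ACMSD (-1.75 to 0.33), ASL (-2.25 to 0.26) and BCKDHA (-0.99 to 0.18), positive without the TBM graft in all 4. The cause of these changes was not tested. No pairing by replicate number was possible because the labels give none, and the fit with genotype as a block is the paired one here.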
